A study of Mus musculus with 23 samples.

Results

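Plasmacytoid dendritic cells (pDC) of mouse spleen were compared between mice whose Bcl6 gene was conditionally deleted (cKO) and wild-type (WT) mice. The comparison took every array labelled as pDC, 5 from cKO and 3 from WT, which were 8 of the 23 arrays of the study. The other arrays held conventional dendritic cells of type 1 (cDC1, 4 cKO and 3 WT) and type 2 (cDC2, 5 cKO and 3 WT). Each array was hybridised with RNA of 1 sorted population after collagenase B and DNase I digestion of the spleen and lysis of red cells. Genotype is given as cKO or WT, with no treatment. The Cre line that removed Bcl6, the age and the sex of the mice, the sorting gate and whether animals were pooled are not given in the sources used here. All probe sets that name 1 gene and exceeded the array median on 3 or more of the 23 arrays were kept, which gave 12157 genes of 19939 with such a probe set. No measured difference entered this choice, though a gene above the median in 1 group only, such as cKO pDC, could pass.

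BCL6 is a zinc finger protein that binds DNA and recruits corepressors such as BCOR to silence genes. Its best studied roles are in B cells of the germinal centre and in follicular helper T cells. The pDC sense nucleic acids in endosomes through Toll-like receptors and secrete large amounts of type I interferon, a programme that depends on the transcription factors TCF4, SPIB, IRF8 and IRF7. Type I interferon signals through a complex that holds STAT2 and IRF9 to raise antiviral genes such as those of the OAS, IFIT, MX and Schlafen families.

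Values are log2 of the deposited intensity throughout, and a difference is cKO minus WT on that scale. The median intensity of the 8 pDC arrays ran from 30.0 to 41.2. The arrays fell into 3 sets by this median, which an earlier look at these data had found and no label names. They are called processing sets here as a name only, since no label says that they reflect processing. Set A held cKO replicates 1 and 2 and WT replicate 1, set B cKO replicate 3 and WT replicate 2, and set C cKO replicates 4 and 5 and WT replicate 3. Every set thus held both genotypes. The gap between sets A and B is thin over the 23 arrays, since the highest median in A was 31.0 and the lowest in B 31.6. WT replicate 1 read 11.9 for Xist, the transcript of the inactive X chromosome of females, while the other 7 pDC arrays read between 3.79 and 5.07. Genes of the Y chromosome averaged 3.90 in WT replicate 1 and 6.39 to 7.46 in the other 7. By these transcripts WT replicate 1 read as female and all others as male, so sex was not balanced between the genotypes. WT replicate 2 had the highest mean of natural killer (NK) cell genes and the lowest of pDC identity genes, as given below. In pDC identity genes cKO replicate 3, also of set B, was nearly as low. Results are therefore also given with single arrays left out or within sets.

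The label was first set against pDC markers. Of 28 pDC surface and identity genes with a probe set, 27 passed the filter, and for none of these was a group mean below the mean array median, while the recombinase gene Rag1 was below the array median on all 8 arrays. Siglech, which encodes the sialic acid-binding receptor that marks mouse pDC, read 12.21, 12.53, 12.08, 12.69 and 12.46 in cKO pDC and 12.52, 12.24 and 12.51 in WT pDC. All 8 arrays were high and the genotypes overlapped, with a difference of −0.03 ± 0.24 (limma SE) and a 95% interval of −0.54 to 0.48. In cDC1 and cDC2 the same probe set averaged 5.46 to 5.89. Bst2, the interferon-inducible membrane protein recognised by pDC antibodies, averaged 12.92 ± 0.32 in cKO pDC and 12.88 ± 0.57 in WT pDC (SD, n = 5 and n = 3). Ly6d, a surface marker of lymphoid-primed precursors and pDC, averaged 12.27 ± 0.37 in cKO pDC and 12.29 ± 0.48 in WT pDC. The summed intensity of the 28 genes was 38837 to 59385 in cKO pDC and 36267 to 61435 in WT pDC, so the ranges overlapped.

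**Figure D1:**
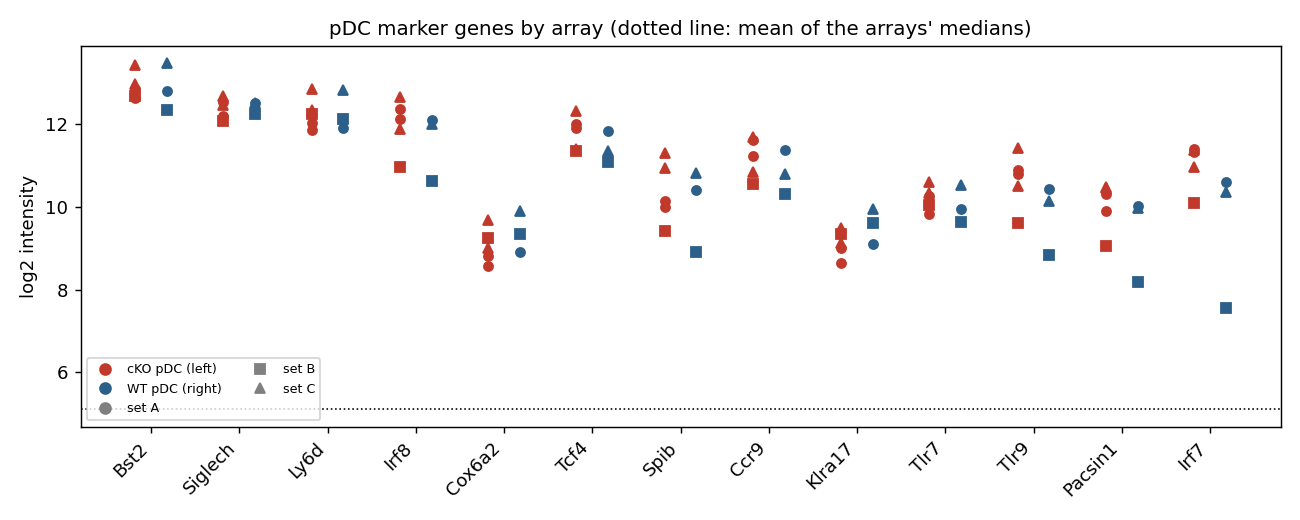
Log2 intensity of 13 pDC marker genes (x axis) on each pDC array, cKO on the left (red) and WT on the right (blue) of each gene, with the symbol giving the processing set and the dotted line the mean of the arrays' medians. All points lie above that line. Most genes overlap between genotypes, and the lowest point of Irf7, at 7.56, is WT replicate 2.

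Markers of other cells were read in the same arrays. Of 15 cDC1 genes with a probe set, only the chemokine receptor Xcr1 and the integrin Itgae were below the array median on all 8 arrays. Of 14 cDC2 genes, only Clec4a4 and Esam were. The summed intensity of the cDC1 list, which holds Irf8, was 3995 to 9696 in cKO pDC and 3721 to 6789 in WT pDC. That of the cDC2 list, which holds Cd209a, was 4157 to 10297 in cKO pDC and 5233 to 8835 in WT pDC. Of 15 red pulp macrophage genes, 6 were below the median on all 8 arrays, Spic, Cd163 and Mrc1 among them, and the summed intensity of the list was 500 to 611 in cKO pDC and 556 to 733 in WT pDC. NK cell genes summed to 1257 to 1958 in cKO pDC and 1447 to 3534 in WT pDC, and none of the 14 was below the median on all arrays. The 11 NK cell genes tested averaged 5.36 to 5.94 in the 5 cKO arrays, against 5.53, 6.82 and 5.81 in WT replicates 1, 2 and 3, so WT replicate 2 was the highest. Ncr1, the activating receptor NKp46 of NK cells, read 3.95 to 4.95 in cKO pDC and 4.48, 7.23 and 4.11 in WT pDC, again highest in WT replicate 2. The 27 pDC identity genes averaged 9.65 to 10.31 in cKO pDC and 10.17, 9.503 and 10.34 in WT pDC. WT replicate 2 was the lowest of the 8 arrays, and cKO replicate 3, also of set B, was the next lowest at 9.65. B cell genes summed to 940 to 1956 in cKO pDC and 990 to 1635 in WT pDC, with no gene below the median on all 8 arrays. T cell genes summed to 2341 to 3569 in cKO pDC and 1910 to 3950 in WT pDC, and monocyte and neutrophil genes to 2449 to 5071 in cKO pDC and 2386 to 3621 in WT pDC. In sorted bulk RNA, fewer cells of a type and less RNA per cell cannot be told apart.

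The probe set for Bcl6 read 6.03, 5.15, 5.34, 6.42 and 5.65 in cKO pDC and 6.33, 5.40 and 5.88 in WT pDC. The genotypes overlapped. The difference was −0.15 ± 0.33 (SE), with a 95% interval of −0.84 to 0.54 and an unadjusted limma p of 0.659. This probe set may lie outside the deleted part of the gene, so it checks nothing about the deletion and the directions below rest on the labels. In the conventional populations Bcl6 averaged 8.39 in cKO cDC1 against 7.42 in WT cDC1 and 8.0 in cKO cDC2 against 7.31 in WT cDC2. The difference was 0.96 ± 0.35 in cDC1 (95% interval 0.25 to 1.68) and 0.69 ± 0.33 in cDC2 (0.0056 to 1.38). Both intervals lay above 0, so the probe set read higher in cKO cells of both types, though neither difference was called over all genes. The difference of the genotype effects, pDC minus cDC1, was −1.11 ± 0.48 and did not pass (adjusted p = 1), nor did that against cDC2 (−0.84 ± 0.47).

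Few genes were called different between cKO and WT pDC. Limma called 4 genes higher in cKO pDC (0.0329% of the 12157 genes tested) and 0 lower (0%) at a Benjamini-Hochberg adjusted p below 0.05. The genes higher were the neighbours Gm12253 and 1810065E05Rik and the interferon-stimulated genes Slfn5 and Oasl2. At an unadjusted p below 0.05, 164 genes were higher (1.35%) and 78 lower (0.642%). These 242 genes are fewer than the share of 0.05 that chance alone would pass, so the counts by themselves show no excess. Once the sets were fitted too, 1028 genes passed the same cut. Across all genes tested the median difference was 0.05, 59.3% of genes were above 0 and the median SE was 0.28. The cKO arrays all lay above the WT arrays for 58 genes (0.477%) and all below for 23 genes (0.189%). The count of calls moved with the libraries: it was 1 without WT replicate 2, 2 without WT replicate 1, 2 without cKO replicate 2, 4 or 5, and 0 when only the 8 pDC arrays were fitted, with a smallest adjusted p of 0.0598. With the processing set as a term it was 20 higher and 6 lower, and as a random block 25 and 7.

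Gm12253, a protein-coding gene of chromosome 11 with no function given in the annotation used, read 9.07, 9.43, 9.11, 9.48 and 9.53 in cKO pDC and 7.37, 7.11 and 7.67 in WT pDC. Every cKO array exceeded every WT array, and the spread within each genotype was small. The difference was 1.94 ± 0.19 (SE), 3.84-fold, with a limma adjusted p of 5.39e-06. Set by set, it was 1.88 in A, 2.0 in B and 1.83 in C. In cDC1 and cDC2 the gene averaged 3.88 in cKO of either type, against 3.94 in WT cDC1 and 4.06 in WT cDC2, all under the mean array medians of the groups, which were 5.06 to 5.13. The genotype effect in pDC exceeded that in cDC1 by 2.001 ± 0.27 (adjusted p = 0.000146) and that in cDC2 by 2.12 ± 0.26 (adjusted p = 0.000107). With levels under the median in cDC1 and cDC2, an effect there may not be measurable, so these tests largely restate the pDC difference.

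1810065E05Rik, the next RefSeq gene to Gm12253 on the same chromosome, read 7.06, 7.85, 8.34, 6.75 and 8.83 in cKO pDC and 5.62, 5.25 and 6.16 in WT pDC. The genotypes did not overlap, though the cKO arrays spread widely. The difference was 2.09 ± 0.33 (SE), 4.25-fold, with a limma adjusted p of 0.0123, and 1.83, 3.09 and 1.63 within sets A, B and C. The pDC effect exceeded that in cDC2 by 2.28 ± 0.47 (adjusted p = 0.0194). Against cDC1 the excess was 2.08 ± 0.48 and did not pass (adjusted p = 0.0638). This gene, too, averaged 3.52 to 3.71 in the groups of conventional cells, below the array median, so the same limit holds.

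Slfn5, an interferon-stimulated member of the Schlafen family, read 7.60, 8.01, 7.30, 8.23 and 7.70 in cKO pDC and 6.55, 5.04 and 6.37 in WT pDC. WT replicate 2 was the lowest, and the genotypes did not overlap. The difference was 1.78 ± 0.31 (SE), 3.43-fold, with a limma adjusted p of 0.0307, and 1.25, 2.26 and 1.59 within sets A, B and C. Oasl2, an interferon-stimulated relative of the oligoadenylate synthetases, read 8.80, 9.36, 8.85, 9.32 and 9.16 in cKO pDC and 7.97, 7.53 and 7.85 in WT pDC. The difference was 1.32 ± 0.23, 2.49-fold, with an adjusted p of 0.0266, and 1.11, 1.33 and 1.39 within the sets. For neither gene did the test of the difference from cDC1 or cDC2 pass (adjusted p = 1 in each). Oasl2 was also called in cDC1, where it averaged 6.45 in cKO and 5.42 in WT cells (1.03 ± 0.24, adjusted p = 0.0332), while in cDC2 its difference was 0.61 ± 0.23 (adjusted p = 0.35). Slfn5 and Oasl2 lost their calls without cKO replicate 2, 4 or 5, and without WT replicate 2 Gm12253 alone of the 4 genes was called.

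**Figure D2:**
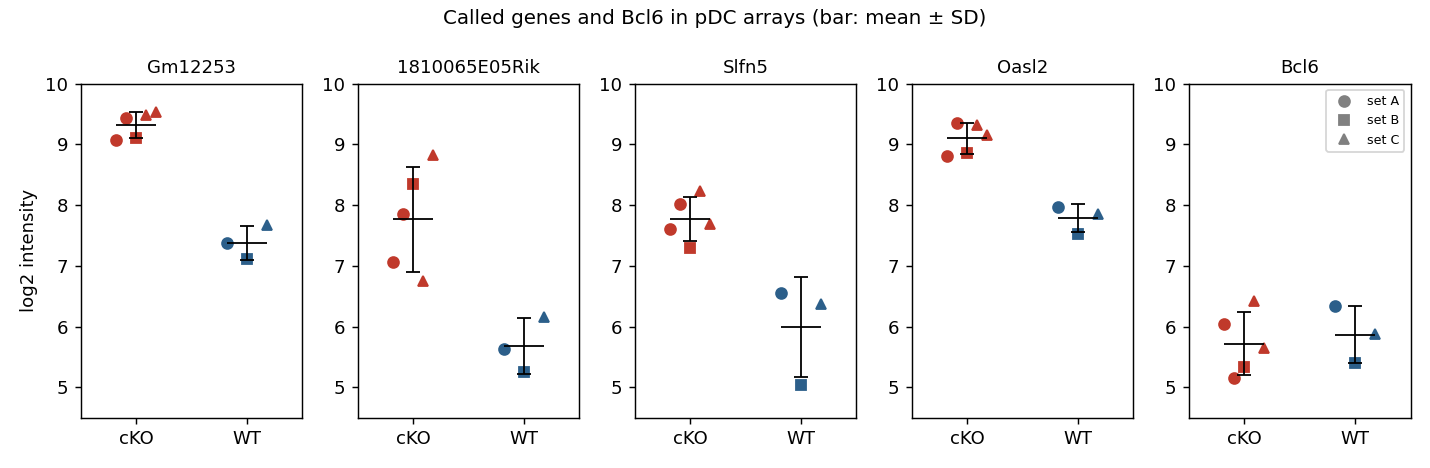
Log2 intensity (y axis) of the 4 called genes and Bcl6 on each pDC array, cKO left and WT right, with the symbol giving the processing set and bars the mean ± SD. Gm12253, 1810065E05Rik, Slfn5 and Oasl2 do not overlap between genotypes, whereas the points of Bcl6 do.

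The genes next in order of p did not pass. Sdc3, which encodes the heparan sulfate proteoglycan syndecan-3, read 8.32, 8.49, 7.96, 8.74 and 8.85 in cKO pDC and 7.49, 6.63 and 7.17 in WT pDC, a difference of 1.37 ± 0.26 (adjusted p = 0.0701) with no overlap. Apod, the lipocalin apolipoprotein D, averaged 6.38 ± 0.86 in cKO pDC and 4.46 ± 0.88 in WT pDC (adjusted p = 0.0871), its WT level below the array median. Toward lower levels the smallest p values belonged to Xlr, Etfbkmt, Smpdl3a, Adgre4 and Zfp160, none of them called. Xlr, an X-linked lymphocyte-regulated gene, read 4.12, 3.21, 4.54, 3.47 and 3.15 in cKO pDC and 4.77, 4.87 and 5.82 in WT pDC (−1.46 ± 0.33, adjusted p = 0.257), and only WT replicate 3 lay well above the array median. Etfbkmt, a mitochondrial lysine methyltransferase, averaged 5.83 ± 0.24 in cKO pDC and 6.63 ± 0.35 in WT pDC (−0.80 ± 0.20, adjusted p = 0.673). Smpdl3a, an acid sphingomyelinase-like phosphodiesterase, averaged 5.52 ± 0.28 in cKO pDC and 6.30 ± 0.25 in WT pDC (−0.78 ± 0.20, adjusted p = 0.676). Adgre4, an adhesion receptor of myeloid cells, and the zinc finger gene Zfp160 overlapped between genotypes, with differences of −1.02 ± 0.27 and −0.76 ± 0.21.

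The interferon-stimulated genes lay above 0 as a list. Of 41 listed genes 36 were tested, and the difference was above 0 in 36 of 36, with a median of 0.83 against 0.05 over all genes. Limma called 2 of the 36, Slfn5 and Oasl2 (background 0.0329%). At an unadjusted p below 0.05, 24 were higher and 0 lower, against 1.35% and 0.642% of all genes. The cKO arrays lay wholly above the WT arrays for 9 members, against 0.477% of all genes. These counts describe a list that was picked with earlier results of these data known, and its members share a pathway, so they are not separate observations.

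The mean of the list was 7.18, 7.68, 7.14, 7.82 and 7.80 in cKO pDC and 6.72, 6.31 and 6.96 in WT pDC. The genotypes did not overlap, and WT replicate 2 was the lowest array. Taken set by set, the list median was 0.68 in A, 0.70 in B and 0.84 in C, where 35, 31 and 32 of 36 members were above 0, against 54.7%, 53.1% and 50.8% of all genes. Sets A and C do not hold WT replicate 2. Without that array the list median was 0.70, and without WT replicate 1, which had high Xist, it was 0.81. In cDC1 the median of the same list was 0.95 and in cDC2 it was 0.65. These cells were set against WT arrays of the same cell type. WT replicate 1 read high for Xist in each cell type (10.9 in cDC1, 11.3 in cDC2 and 11.9 in pDC). Whether arrays of different cell types came from the same mice is not given, so these medians may not be independent. No difference between the lists was tested.

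The members covered several steps of the interferon response. Among its transcription factors, Irf7 read 11.34, 11.41, 10.10, 11.37 and 10.98 in cKO pDC and 10.60, 7.56 and 10.37 in WT pDC. WT replicate 2 was far below the other arrays, and the difference of 1.53 ± 0.45 (adjusted p = 1) was 0.78 and 0.80 within sets A and C and 2.54 within set B. Stat2, a subunit of the complex that interferon activates, read 10.17, 10.51, 9.12, 10.45 and 9.93 in cKO pDC and 9.71, 8.44 and 8.96 in WT pDC. The difference was 0.997 ± 0.35 (adjusted p = 1), and the genotypes overlapped. Irf9, its DNA-binding partner, averaged 8.81 in cKO pDC and 8.06 in WT pDC (0.76 ± 0.36).

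Among antiviral effectors, Oasl1 read 7.99, 8.36, 7.45, 9.34 and 8.87 in cKO pDC and 7.23, 6.19 and 7.63 in WT pDC. Oasl1 inhibits the translation of Irf7 mRNA in mice, and its difference was 1.38 ± 0.40 (adjusted p = 1). Zbp1, a sensor of Z-form nucleic acids, averaged 6.86 ± 0.46 in cKO pDC and 5.81 ± 0.28 in WT pDC with no overlap (1.05 ± 0.28, adjusted p = 0.693). Iigp1, an immunity-related GTPase, averaged 6.98 ± 0.74 in cKO pDC and 5.72 ± 0.88 in WT pDC (1.26 ± 0.42). Of further members, here named after their values were seen, Oas1a had a difference of 1.56 ± 0.36, Rsad2, which encodes the antiviral enzyme viperin, 1.46 ± 0.44, and Usp18, which removes ISG15 from proteins, 1.33 ± 0.48. The arrays of each overlapped between genotypes. For Oas1a the WT mean, 4.99, lay below the mean array median, so its size is uncertain. At the low end, Bst2 had 0.04 ± 0.41 and Slfn1 0.26 ± 0.26. Bst2, which interferon induces in many cells, was near the median of all genes.

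**Figure D3:**
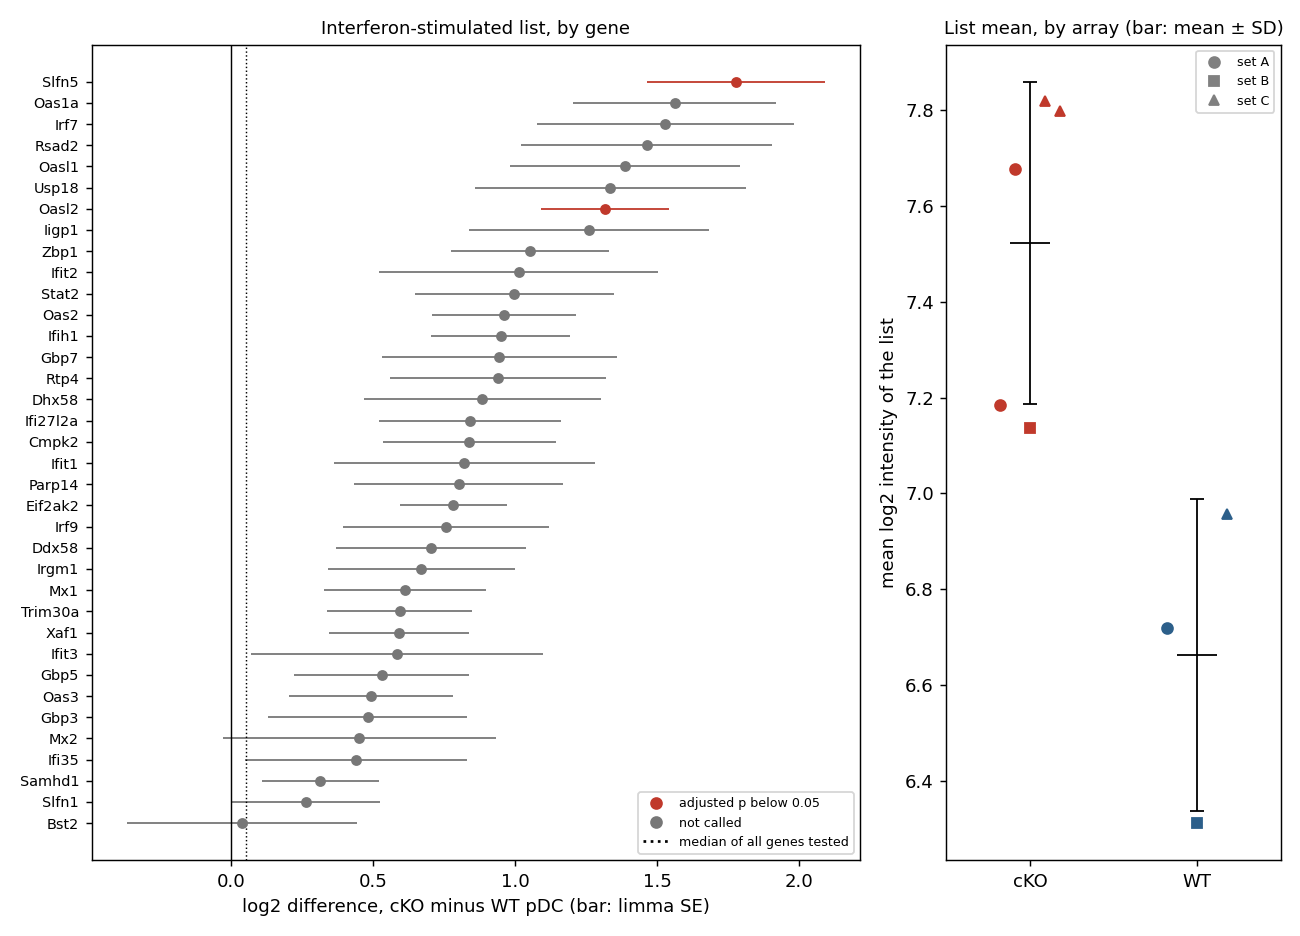
Left, log2 difference, cKO minus WT pDC (x axis), of the 36 interferon-stimulated genes tested with the limma SE, called genes in red and the median of all genes dotted. Right, mean log2 intensity of the list on each array (y axis), cKO left and WT right, with bars for the mean ± SD. Every gene lies above 0, from 0.04 for Bst2 to 1.78 for Slfn5, and the lowest cKO array, at 7.14, lies above the highest WT array, at 6.96.

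The promoters of the 4 called genes and of 2 further interferon-stimulated genes, Oasl1 and Stat2, are given below, since the interferon genes share a known DNA element and the neighbours lie side by side. Each window runs from 250 bases before to 50 bases after the RefSeq start of the gene, on the plus strand of GRCm38.p6, 5′ to 3′. Capitals mark GAAANNGAA, the core of the interferon-stimulated response element, searched on both strands.

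Gm12253, chr11:58432309-58432608: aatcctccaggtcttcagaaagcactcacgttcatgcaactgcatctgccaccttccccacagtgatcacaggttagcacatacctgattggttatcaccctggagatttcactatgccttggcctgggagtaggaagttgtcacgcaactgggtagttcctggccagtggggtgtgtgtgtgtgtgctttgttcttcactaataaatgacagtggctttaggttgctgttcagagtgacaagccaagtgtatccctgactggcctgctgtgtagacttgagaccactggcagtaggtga
1810065E05Rik, chr11:58420861-58421160: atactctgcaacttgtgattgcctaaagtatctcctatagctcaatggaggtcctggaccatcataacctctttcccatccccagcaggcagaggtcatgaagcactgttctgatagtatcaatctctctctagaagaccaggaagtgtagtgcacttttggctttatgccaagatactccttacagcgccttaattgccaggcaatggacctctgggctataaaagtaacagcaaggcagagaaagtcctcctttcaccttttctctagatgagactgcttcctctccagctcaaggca
Slfn5, chr11:82951852-82952151: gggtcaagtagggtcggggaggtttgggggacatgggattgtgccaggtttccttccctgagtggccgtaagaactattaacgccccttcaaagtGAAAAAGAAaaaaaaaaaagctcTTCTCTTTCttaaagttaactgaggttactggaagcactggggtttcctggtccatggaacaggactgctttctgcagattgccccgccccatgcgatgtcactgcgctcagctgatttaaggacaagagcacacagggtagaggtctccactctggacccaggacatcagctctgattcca
Oasl2, chr5:114896684-114896983: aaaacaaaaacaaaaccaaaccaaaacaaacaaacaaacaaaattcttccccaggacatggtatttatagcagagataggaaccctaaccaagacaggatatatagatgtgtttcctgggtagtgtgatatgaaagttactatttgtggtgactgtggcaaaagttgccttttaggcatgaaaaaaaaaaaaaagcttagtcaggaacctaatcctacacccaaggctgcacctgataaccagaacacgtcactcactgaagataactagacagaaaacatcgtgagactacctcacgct
Oasl1, chr5:114922990-114923289: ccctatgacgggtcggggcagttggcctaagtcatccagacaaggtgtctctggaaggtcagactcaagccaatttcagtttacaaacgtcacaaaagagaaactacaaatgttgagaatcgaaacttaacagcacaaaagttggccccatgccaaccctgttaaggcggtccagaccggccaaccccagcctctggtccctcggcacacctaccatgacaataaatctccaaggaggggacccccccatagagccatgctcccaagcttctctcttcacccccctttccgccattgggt
Stat2, chr10:128270248-128270547: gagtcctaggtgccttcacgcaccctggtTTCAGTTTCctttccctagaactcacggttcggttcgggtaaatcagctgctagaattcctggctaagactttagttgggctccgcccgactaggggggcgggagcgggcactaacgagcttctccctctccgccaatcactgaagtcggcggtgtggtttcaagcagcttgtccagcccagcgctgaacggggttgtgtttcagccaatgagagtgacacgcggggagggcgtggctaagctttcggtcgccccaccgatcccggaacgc

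The window of Slfn5 held the core at 2 places, beginning 155 bases before the start on the forward strand and 132 bases before it on the reverse strand. The window of Stat2 held it once, 221 bases before the start on the reverse strand. The windows of Gm12253, 1810065E05Rik, Oasl2 and Oasl1 did not hold these letters. Of the interferon-stimulated genes tested, 26 had a window in the table, and 16 of these (61.5%) held the core, against 9.76% of all 27025 genes with a window. The core TTCCTNGAA of the BCL6 binding motif, searched on both strands, was in none of the 6 windows. It was in 3 of the 26 interferon-stimulated genes (11.5%), against 1.86% of all genes. A match is a description of letters and not of binding.

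Genes upstream of interferon and of pDC identity are given next as values. With 0.0329% of all genes called higher and 0% lower, lists of this size hold no call at that share, so an absence of calls says nothing about a list. Of 22 transcription factors of pDC tested, 17 were above 0 and 5 below, with a median of 0.13 and 0 called in limma (1 at an unadjusted p below 0.05, Irf7). Tcf4, which specifies pDC, averaged 11.80 ± 0.42 in cKO pDC and 11.42 ± 0.38 in WT pDC (0.38 ± 0.26). Irf8, a factor that pDC and cDC1 use, averaged 12.00 ± 0.65 in cKO pDC and 11.58 ± 0.81 in WT pDC (0.42 ± 0.38). Spib, an ETS factor of pDC and B cells, read 9.99, 10.14, 9.42, 11.31 and 10.94 in cKO pDC and 10.42, 8.92 and 10.82 in WT pDC (0.31 ± 0.40). Id2, the inhibitor that antagonises E proteins such as TCF4, read 4.44, 4.26, 6.53, 5.19 and 6.81 in cKO pDC and 4.85, 7.09 and 7.07 in WT pDC. Its arrays overlapped and its difference of −0.89 ± 0.54 was the lowest of the list.

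Of 27 surface and identity genes, 18 were above 0 and 9 below, with a median of 0.04 and 0 called. Dntt, the terminal transferase that pDC express from lymphoid-type precursors, read 6.35, 6.86, 7.03, 7.68 and 7.52 in cKO pDC and 7.84, 7.63 and 8.37 in WT pDC, a difference of −0.86 ± 0.27 (adjusted p = 1). Only cKO replicate 4 exceeded a WT array, WT replicate 2. Pltp, the phospholipid transfer protein, averaged 11.36 ± 0.64 in cKO pDC and 10.62 ± 1.12 in WT pDC (0.74 ± 0.38). Ccr9, the gut-homing receptor of pDC, averaged 11.19 ± 0.49 in cKO pDC and 10.83 ± 0.52 in WT pDC (0.36 ± 0.36). Cd7, Tspan13, Klra17 and Cox6a2 had differences between −0.43 and 0.11.

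Of 28 endosomal sensors and factors that induce interferon, 0 were called (background 0.0329%), 24 were above 0 and 4 below, with a median of 0.21 that was −0.05 without WT replicate 2. Tlr7, the sensor of single-stranded RNA, averaged 10.22 ± 0.29 in cKO pDC and 10.04 ± 0.45 in WT pDC (0.18 ± 0.32, 95% interval −0.49 to 0.85). Tlr9, the sensor of unmethylated CpG DNA, read 10.89, 10.81, 9.61, 11.43 and 10.50 in cKO pDC and 10.44, 8.83 and 10.14 in WT pDC (0.84 ± 0.40, adjusted p = 1). Pacsin1, an adaptor reported in TLR7 and TLR9 signalling of pDC, averaged 10.04 ± 0.60 in cKO pDC and 9.40 ± 1.05 in WT pDC (0.64 ± 0.42). In each of Tlr9 and Pacsin1 the lowest array was WT replicate 2 and the next lowest cKO replicate 3.

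Genes described as repressed by BCL6 in B and T cells were not higher as a list. Of 36 tested, 15 were above 0 and 21 below, with a median of −0.06 and 0 called, against 0.05 over all genes. Ccnd2, the cyclin D2 gene that BCL6 represses in B cells, read 10.15, 9.73, 10.18, 10.31 and 10.80 in cKO pDC and 9.79, 9.23 and 9.82 in WT pDC. Its difference was 0.62 ± 0.26 (adjusted p = 1), with cKO replicate 2 inside the WT range. Prdm1, which encodes the plasma cell factor BLIMP1, averaged 4.56 ± 0.46 in cKO pDC and 5.01 ± 0.36 in WT pDC, below the array median. The median of this list was 0.17 in cDC1 and 0.37 in cDC2. Of 19 genes of BCL6 and its corepressors, 13 were above 0 and 6 below, with a median of 0.13 and 0 called. Zbtb7b, the related repressor ThPOK, had 0.68 ± 0.40, and Pcgf1, a subunit of the BCOR complex, −0.70 ± 0.38, with −2.13 in set B and 0.08 and −0.31 in sets A and C.

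Among 41 inhibitory and activating receptors that pDC can carry, 22 were above 0 and 19 below, with a median of 0.08 and 0 called. Pilrb1, an activating paired immunoglobulin-like receptor, read 6.88, 6.62, 6.08, 6.17 and 6.30 in cKO pDC and 5.58, 4.72 and 4.43 in WT pDC. The genotypes did not overlap and the difference was 1.498 ± 0.32 (adjusted p = 0.167). Its size is uncertain, since the WT mean, 4.91, lay below the mean array median. Fcgr4, an activating Fc receptor for IgG, read 3.74, 3.90, 4.48, 4.35 and 4.80 in cKO pDC and 5.40, 5.76 and 5.31 in WT pDC. This difference of −1.24 ± 0.41 (adjusted p = 1) has an uncertain size, since the cKO level lay below the array median.

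In the other lists, too, 0 genes were called (background 0.0329%). Medians were 0.04 for chemokine receptors and homing (23 tested), −0.10 for cytokines and chemokines (29), 0.08 for antigen presentation and costimulation (28) and 0.12 for the secretory pathway and unfolded protein response (30). They were 0.04 for cell cycle (29), 0.08 for the BCL2 family and cell death (19), −0.11 for oxidative phosphorylation (28), 0.20 for enzymes of cholesterol synthesis (17) and 0.05 for heat shock and immediate-early genes (22). Tap1, the peptide transporter of MHC class I, had 0.84 ± 0.37, and Txndc5, a disulfide isomerase of the endoplasmic reticulum, 0.71 ± 0.36. The costimulatory molecule Cd83 had −0.58 ± 0.38 and the cytokine Il1b −0.57 ± 0.36. Cholesterol synthesis genes varied by set, with medians of 0.41, 0.07 and −0.11 in sets A, B and C, and oxidative phosphorylation genes likewise at 0.12, 0.06 and −0.43. Hspa1a, an inducible heat shock protein, spread from 4.23 to 11.14 within cKO pDC and from 6.89 to 12.21 within WT pDC, and it was higher in set C than in set A in each genotype.

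Marker lists of other cells had medians between −0.34 for NK cells and 0.16 for monocytes and neutrophils, with 0 called. For NK cell genes the median was −0.06 in set A, −0.80 in set B and −0.09 in set C. Cd22, an inhibitory sialic acid receptor of B cells, averaged 7.82 ± 0.39 in cKO pDC and 6.98 ± 0.35 in WT pDC with no overlap (0.85 ± 0.26, adjusted p = 1). Cd22 was also called higher in cKO cDC1 (2.22 ± 0.27, limma adjusted p = 1.43e-05), and it averaged 7.91 in cKO cDC2 and 8.57 in WT cDC2. The B cell list had 6 members above 0 and 8 below and a median of −0.03. Jchain, the immunoglobulin joining chain, spread from 4.31 to 9.97 within cKO pDC and from 5.71 to 9.82 within WT pDC. Whether the cells behind these markers had a part in any difference was not tested.

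**Figure D4:**
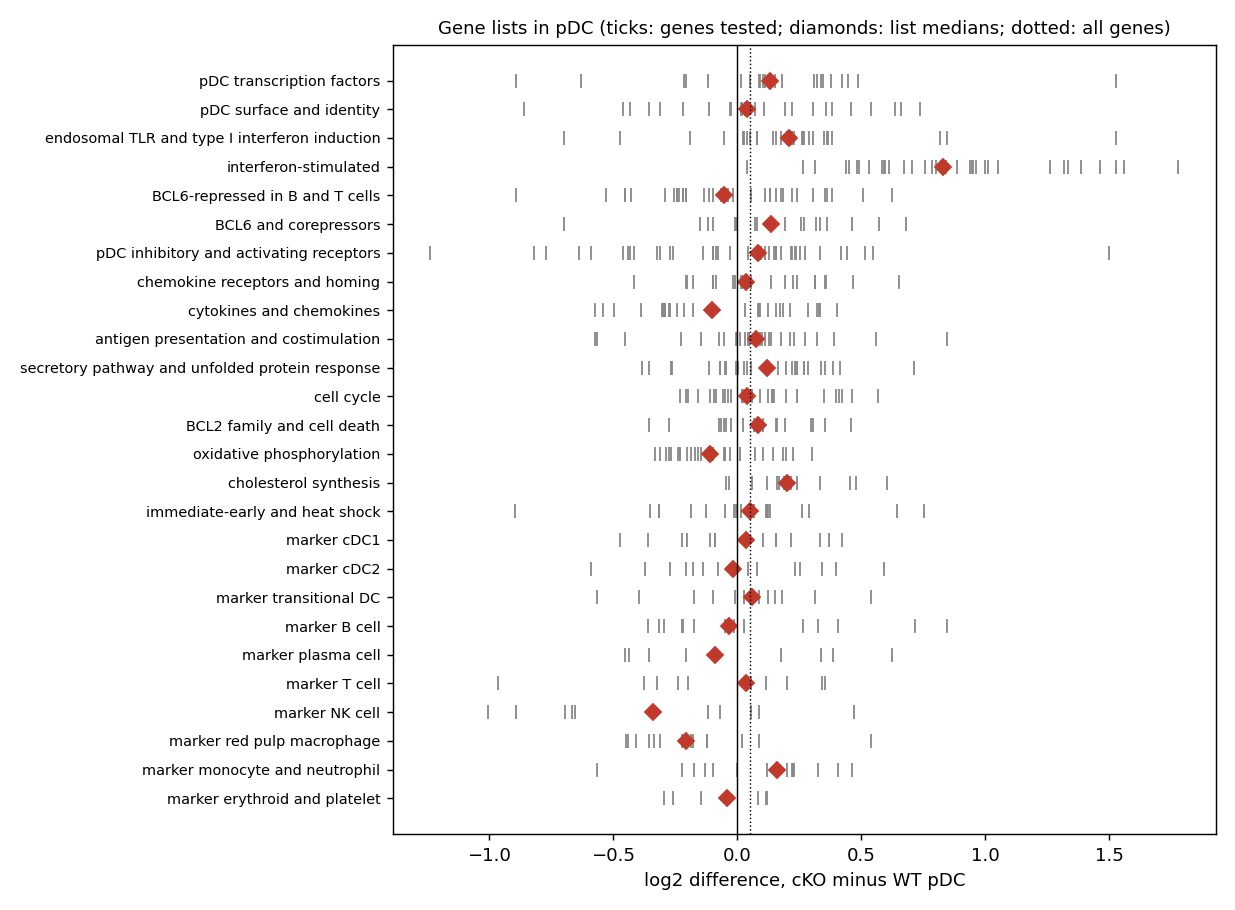
Log2 difference, cKO minus WT pDC (x axis), for the tested genes of 26 lists (ticks) with the list median (diamond), the solid line at 0 and the dotted line at the median of all genes, 0.05. The interferon-stimulated list has the highest median, at 0.83, and the others lie between −0.34 and 0.21.

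Genes that responded to the deletion in conventional dendritic cells were then followed into pDC. Of 99 genes called higher in cKO cDC1 (0.814% of all genes), 69 were above 0 in pDC with a median of 0.18, and 1 of the 99, Oasl2, was called there (background 0.0329%). Their own median in cDC1 was 1.83. Of 141 genes called higher in cKO cDC2 (1.16%), 91 were above 0 in pDC with a median of 0.09, and 0 were called, against a median of 1.44 in cDC2. Of 49 genes called lower in cKO cDC2 (0.403%), 20 were above 0 in pDC, with a median of −0.08 against −1.33 in cDC2. Genes lower in cKO cDC1 were not followed.

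The difference between genotype effects was tested over all genes. Against cDC1, the effect in pDC was called lower for 39 genes (0.321%) and higher for 1 gene, Gm12253 (0.00823%). Of the 99 genes higher in cKO cDC1, 38 were among the 39. Against cDC2, it was called lower for 44 genes (0.362%) and higher for 15 genes (0.123%). The 44 were all among the 141 genes higher in cKO cDC2, and 13 of the 15 were among the 49 lower in cKO cDC2, with Gm12253 and 1810065E05Rik the other 2. Both read below the array median in conventional cells, so their differences of effects largely restate the pDC difference. The differences use the same cDC arrays that chose these genes, so these overlaps are a description.

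The level in WT pDC varied among these genes. Of the 99 genes higher in cKO cDC1, WT pDC already read at or above the cKO cDC1 level in 27, between the WT and cKO cDC1 levels in 36 and at or below the WT cDC1 level in 36. Of the 141 higher in cKO cDC2, the counts were 25, 35 and 81. Cd209d, a lectin of the DC-SIGN family, showed the first pattern, with 10.64, 10.36, 10.29, 10.84 and 11.26 in cKO pDC and 10.69, 10.85 and 11.86 in WT pDC. Its difference in pDC was −0.46 ± 0.36, while it averaged 9.38 in cKO against 4.41 in WT cDC1 and 11.04 in cKO against 5.55 in WT cDC2. The effect in pDC minus that in cDC1 was −5.43 ± 0.51 (adjusted p = 7.39e-07), and minus that in cDC2 it was −5.95 ± 0.50 (adjusted p = 2.5e-07).

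Ccl24, the chemokine eotaxin-2, lay near its WT cDC1 level in pDC. It read 4.92, 4.91, 5.38, 4.65 and 4.98 in cKO pDC and 4.24, 5.21 and 5.19 in WT pDC, near or below the array median, while cKO cDC1 averaged 11.26 and WT cDC1 4.81. Its effect in pDC was 0.09 ± 0.23 (95% interval −0.39 to 0.57), which differed from that in cDC1 by −6.36 ± 0.34 (adjusted p = 4.06e-11). Pilra, the inhibitory counterpart of Pilrb1, averaged 6.45 ± 0.85 in cKO pDC and 6.32 ± 0.79 in WT pDC. Its effect was 0.13 ± 0.40 in pDC, and the differences of effects were −6.16 ± 0.57 against cDC1 and −4.85 ± 0.56 against cDC2 (adjusted p of 6.42e-07 and 4.13e-05). Pilrb1, with 1.498 ± 0.32 in pDC, had 4.95 ± 0.33 in cDC1 and 3.59 ± 0.32 in cDC2, and the differences of effects were −3.45 ± 0.46 and −2.10 ± 0.45 (adjusted p of 0.000146 and 0.0315).

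Capg, an actin-capping protein of the gelsolin family, read 9.03, 9.36, 9.44, 9.35 and 10.17 in cKO pDC and 8.84, 7.57 and 9.78 in WT pDC. The genotypes overlapped (0.74 ± 0.37, adjusted p = 1), and the effect minus that in cDC1 was −4.30 ± 0.54 and minus that in cDC2 −3.81 ± 0.52 (adjusted p of 5.36e-05 and 0.000378). S100a10, the partner of annexin A2, averaged 10.39 ± 0.83 in cKO pDC and 10.41 ± 0.82 in WT pDC and its effect minus that in cDC1 was −4.26 ± 0.66 (adjusted p = 0.00102). Gfra2, a receptor of the GDNF family, Clec4n, the fungal lectin receptor Dectin-2, and the cytokine gene Il6 were below or near the array median in both pDC groups, with differences of −0.24 ± 0.22, 0.15 ± 0.36 and −0.29 ± 0.61. Minus the effect in cDC2 these were −3.95 ± 0.31, −3.56 ± 0.51 and −3.83 ± 0.86 (adjusted p of 9.42e-08, 0.000684 and 0.0418).

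Tlr7 ran the other way. Its level averaged 6.48 in cKO cDC2 against 8.59 in WT cDC2, a difference of −2.11 ± 0.32, and 10.22 in cKO pDC against 10.04 in WT pDC. The pDC effect exceeded that in cDC2 by 2.29 ± 0.46 (adjusted p = 0.0156).

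**Figure D5:**
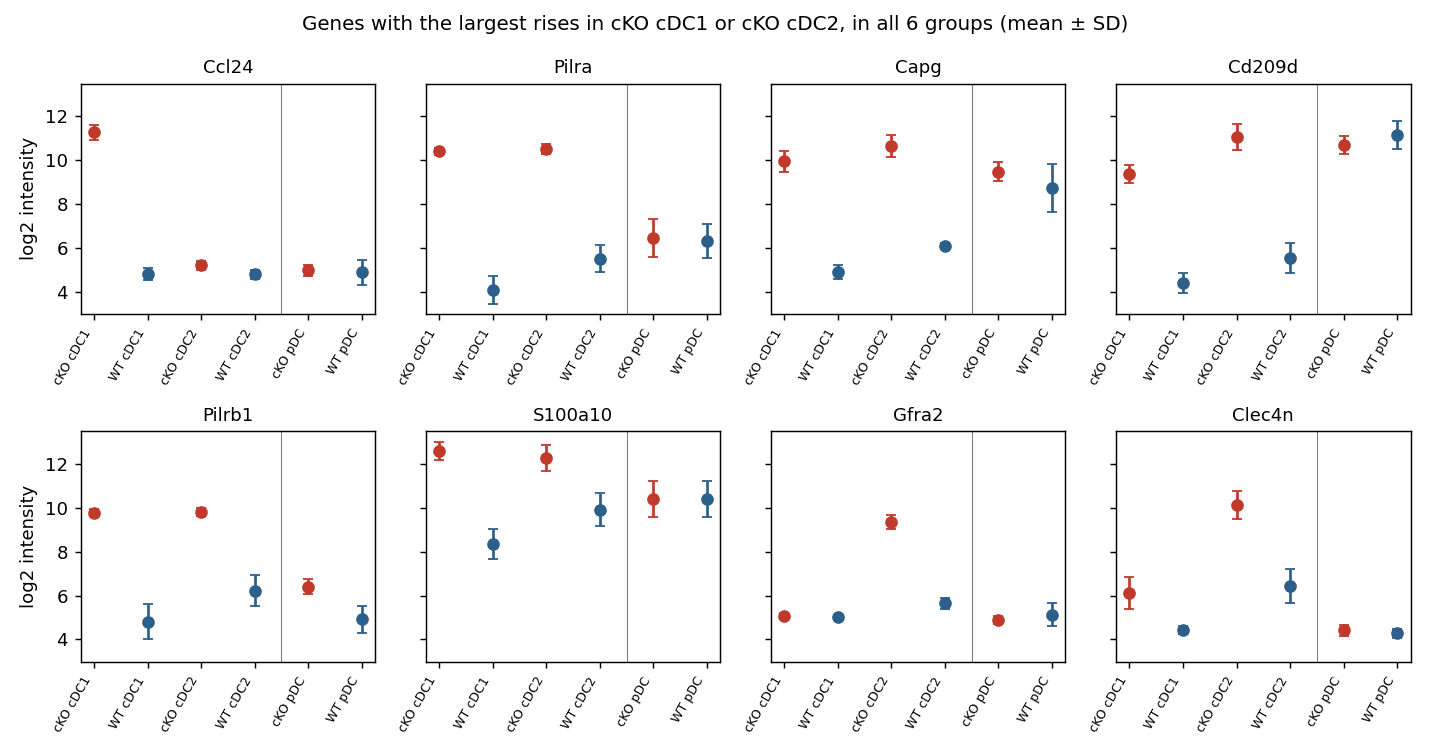
Mean log2 intensity ± SD (y axis) of 8 genes in all 6 groups (x axis), cKO left of WT for each cell type. All but S100a10 were among the 5 largest rises in cKO cDC1 or in cKO cDC2. S100a10 was among the 5 largest differences of effects against cDC1. In pDC, right of the grey line, cKO and WT means lie close together for Ccl24, Pilra, S100a10, Gfra2 and Clec4n. Cd209d is as high in WT pDC as in cKO cDC2, near 11.

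With the processing set as a term in the fit, 20 genes were called higher in cKO pDC (0.165%) and 6 lower (0.0494%), among them the 4 genes called without it. The sets were found from these same arrays and the term makes the residual smaller, so these calls are no separate support. Of the 20, 7 were in the interferon-stimulated list: Slfn5, Oasl2, Oasl1, Iigp1, Stat2, Zbp1 and Ifi27l2a. The remaining ones were Gm12253, 1810065E05Rik, Sdc3, Apod, Pilrb1, Isg20, Ube2l6, Lgals3bp, Ifi213, Trafd1, Gfra3, Ehd3 and Yipf2. Of these, Apod and Gfra3 averaged below the array median in WT pDC (4.46 and 4.44) and in the cDC groups (3.88 to 4.33). They passed the filter mainly through cKO pDC arrays, so their calls are given as values only. The 6 lower were Dntt, Fcgr4, Smpdl3a, Etfbkmt, Gm6377 and Mzt1. Leaving out WT replicate 1 gave 52 higher and 15 lower, and leaving out WT replicate 3 gave 9 and 4. Without WT replicate 2 there were 10 and 4, without cKO replicate 2 there were 12 and 4, and merging sets A and B gave 8 and 1.

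Some of these genes have known roles in the interferon response and were not on the list. Isg20, an interferon-induced exonuclease, read 7.74, 8.05, 8.11, 7.88 and 8.60 in cKO pDC and 6.75, 6.21 and 7.42 in WT pDC. The arrays did not overlap, and the difference was 1.28 ± 0.27 (adjusted p = 0.167 without the set and 0.0318 with it). Ube2l6, the enzyme that conjugates ISG15, read 7.15, 7.76, 7.85, 8.14 and 8.16 in cKO pDC and 7.09, 6.23 and 7.10 in WT pDC (1.01 ± 0.26, adjusted p = 0.676 without the set and 0.033 with it). Ifi213, of the interferon-inducible HIN-200 family, averaged 4.95 ± 0.94 in cKO pDC and 3.10 ± 0.50 in WT pDC, both below the array median. Dntt had an effect of −0.89 ± 0.14 with the set term (adjusted p = 0.00402), and −1.23, −0.61 and −0.77 within sets A, B and C.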

How the data were processed

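The deposited values are gene-level intensities of Mouse Gene 1.0 ST arrays, 1 per probe set and array, made by the authors with Affymetrix Expression Console and RMA, per the submitters' processing notes; versions are not given in the sources used here. The intensity values are linear, and log2 was applied first, with no further normalization. Of 28853 probe sets 21789 named 1 gene, 1621 named several and 5443 had no name, and of these 912 and 2338 passed the filter and were tested apart. Where a gene had several, its probe set of highest mean was used. RefSeq (GRCm38.p6) gave names, neighbours and promoters.

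A mean for each of the 6 groups was fitted to all 23 arrays with limma 3.58.1 in R 4.3.3 (lmFit, eBayes, 17 residual degrees of freedom), two-sided, with Benjamini-Hochberg adjustment over 12157 genes and a call below 0.05. Differences carry limma SE and levels SD. The fit was tested on simulated data. Files were read with data.table (version 1.17.8), and figures drawn with matplotlib 3.10.9 and numpy 2.4.6. No label states separate animals for the arrays of a group, so the p-values reflect array-to-array spread that could be technical. Precision is limited by how many arrays there were. The fit and the tests of differences between effects treat arrays of different cell types as independent, which no label states.

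Members and lists were chosen with earlier results of these data known. Named genes are Bcl6, called genes whose arrays did not overlap (or the 5 smallest p), up to 4 called or the 2 largest members of each list, the highest pDC genes, the 5 largest called differences of effects and the 5 largest rises in cKO cDC1 and cDC2. Genes called with the processing set as a term were added after their values were seen. Alternatives were other fits, normalizations, filters and each array left out.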

Additional observations from a re-analysis of the deposited data

Results flagged for a closer look

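Some cKO pDC arrays lay far from the other 4 of their group. Pltp, the phospholipid transfer protein, read 10.24 in cKO replicate 3, and the mean of the cholesterol synthesis list was 7.05 in the same array, both the lowest of the 5. Jchain, the immunoglobulin joining chain, read 4.31 in cKO replicate 5. Prdm1 read 5.36 in cKO replicate 4 and Pilra 7.90 in cKO replicate 5, each the highest of the 5. These are 5 of 119 values looked at, and chance marks about 1 in 20.

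The genotype effect in pDC differed from that in a conventional population, by the limma test of the difference, for the genes that follow. Above 0 were Gm12253 (2.001 against cDC1 and 2.12 against cDC2), 1810065E05Rik (2.28 against cDC2) and Tlr7 (2.29 against cDC2). Of these, Gm12253 and 1810065E05Rik read below the array median in conventional cells. Below 0 against cDC1 were Ccl24 (−6.36), Pilra (−6.16), Cd209d (−5.43), Capg (−4.30), S100a10 (−4.26), the lectin gene Cd209a (−3.80), Pilrb1 (−3.45), Fcgr4 (−2.75) and Pltp (−2.59). Below 0 against cDC2 were Cd209d (−5.95), Pilra (−4.85), Gfra2 (−3.95), Il6 (−3.83), Capg (−3.81), Clec4n (−3.56), Pilrb1 (−2.10), the scavenger receptor gene Cd36 (−2.03) and Cd209a (−1.59).

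Among 912 probe sets that each name several genes, 2 were called higher in cKO pDC, and 0 of 2338 without a gene name were called. Probe set 10385518 averaged 9.19 in cKO pDC and 7.29 in WT pDC (1.91 ± 0.36, limma adjusted p = 0.0483). Probe set 10533246 averaged 7.24 in cKO pDC and 5.28 in WT pDC (1.96 ± 0.28, limma adjusted p = 0.00213). No gene is named from them.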

How the results depend on the processing

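The 4 genes higher in cKO pDC became 0 with only the 8 pDC arrays (102 genes at an unadjusted p below 0.05) and 0 with the replicate block within them (161 genes), 20 with a term for the processing set, 25 with it as a random block, 7 after quantile normalization and 1 with array weights. The 0 lower became 6 and 7 with the set as a term and as a random block. Leaving out each pDC array gave 1 to 6 higher and 0 to 1 lower. With the set term, merging sets A and B gave 8 higher and 1 lower, and leaving out each array gave 9 to 52 and 3 to 15. Replicate numbers did not pair the arrays: same-numbered arrays had correlations of deviations of 0.64, −0.26 and −0.04, and 1 of 3 WT arrays correlated best with its own number. The effect in pDC minus cDC1 was called higher for 7 and lower for 88 genes with the set term, and for 6 and 92 with the random block. It was lower for 23 with the filter on pDC arrays and 23 without the 3 high-Xist WT arrays, and higher for 1 to 2 and lower for 32 to 40 when each array was left out. Against cDC2, the set term and the random block gave 72 and 75 higher and 146 and 157 lower, quantile normalization 31 higher, the filter on pDC arrays 26 lower, leaving out the high-Xist arrays 5 higher and 19 lower, and leaving out each array 8 to 22 higher and 34 to 39 lower. The cause of these moves was not tested, save that fewer arrays or genes were fitted where they were left out. Of 21 alternatives, Gm12253 was not called in 2, 1810065E05Rik in 6, Slfn5 in 10 and Oasl2 in 11. Their differences kept their sign, within 1.80 to 2.08, 1.82 to 2.34, 1.30 to 2.06 and 1.19 to 1.41. Of 93 named genes, 25 that were not called changed sign under at least 1 alternative. The median of the interferon-stimulated list ran from 0.68 to 0.97. With 3 WT arrays and a median SE of 0.28, small differences cannot be shown, and values below the array median give uncertain sizes.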
